A study of Rattus norvegicus with 12 samples.

Results

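Intergenic circles of 330 to under 420 bp are extrachromosomal circular DNAs (eccDNA) of rat back skin that overlap no gene or 2 kb gene flank in the authors' annotation and whose length lies in that range. They were chosen by the deposited annotation type and by length (end minus start), and they number 90919 of the 228353 eccDNA listed, or 39.8%. The skin came from wild-type SD (Sprague Dawley) rats and was sequenced by Circle-seq, which enriches circular DNA, digests linear DNA and sequences what remains. The 12 libraries form 3 groups of 4. Control rats were untreated, and the backs of the others received an electron beam dose of 5 Gy once a week. Skin was collected 7 days after the last of 2 doses (5 Gy x2) or of 4 doses (5 Gy x4). The question put to the data is whether the circles differ with the number of doses. The labels do not state the time of control sampling or whether each library is a separate animal. The p-values therefore measure only how libraries vary, which may be technical. Dose and the time since the first dose cannot be told apart, as 4 weekly doses take longer than 2.

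Small circular DNAs form when the ends of a short piece of chromosomal DNA are joined. They are found in many normal tissues and are known for lengths that repeat the spacing of nucleosomes, the protein cores around which DNA is wrapped. A nucleosome protects a stretch of DNA and a linker joins it to the next, and the DNA of a pair of neighbours has about the length of the circles described here. DNA wrapped on a nucleosome is exposed once per helical turn, and length profiles of small circles therefore often show a ladder with steps of about a turn.

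The value deposited for each circle and library is a count of supporting reads, the split reads and discordant read pairs that span the joined ends. A circle was taken as present in a library with at least 1 supporting read. Supporting reads over all eccDNA ran from 34499 to 397674 per library, and the total sequencing depth is unknown. Control replicate 4 stood apart from the other libraries in several measures, and values without it are given beside several results.

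Irradiated skin libraries held more of these circles than control skin libraries, with 1 exception. Control replicates 1 to 4 listed 949, 2003, 2854 and 345 intergenic circles of 330 to under 420 bp. The 5 Gy x2 libraries listed 8096, 11760, 11337 and 2310, and the 5 Gy x4 libraries 8575, 18706, 18646 and 7891. Every 5 Gy x4 library and 3 of the 4 libraries of 5 Gy x2 exceeded all controls, while 5 Gy x2 replicate 4 lay between control replicates 2 and 3. The mean was 1538 ± 1113 circles in control, 8376 ± 4362 after 5 Gy x2 and 13454.5 ± 6036 after 5 Gy x4 (SD, n = 4 each), so the 5 Gy x2 mean was 5.45-fold and the 5 Gy x4 mean 8.75-fold the control mean. Because this length class was proposed after its share was seen to differ between the groups, number, share and length are given as a description with no test.

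As a share of each library's eccDNA, these circles made up 9.58% to 27.5% of control libraries, 36.5% to 42.6% of 5 Gy x2 libraries and 38.8% to 41.8% of 5 Gy x4 libraries. Of the supporting reads they held 14.8% ± 4.06 in control, 29.3% ± 4.23 after 5 Gy x2 and 31.4% ± 3.17 after 5 Gy x4 (SD, n = 4). The folds in number depended on the scale. At an expected 34499 reads drawn from every library, the number was 1121 ± 659 in control, 4882 ± 2039 after 5 Gy x2 and 6191 ± 1608 after 5 Gy x4, a fold of 4.36 and 5.52 over control. Per 1000 supporting reads there were 15.7 ± 9.92 circles in control, 56.8 ± 44.3 after 5 Gy x2 and 58.0 ± 32.96 after 5 Gy x4, a fold over control of 3.62 for 5 Gy x2 and 3.70 for 5 Gy x4. On that scale the groups overlapped at both doses: 5 Gy x2 replicate 1 (20.4) and 5 Gy x4 replicate 4 (24.7) lay below control replicate 1 (27.5). The number in 5 Gy x4 was 1.61-fold that in 5 Gy x2 as listed and 1.02-fold per 1000 reads.

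**Figure D1:**
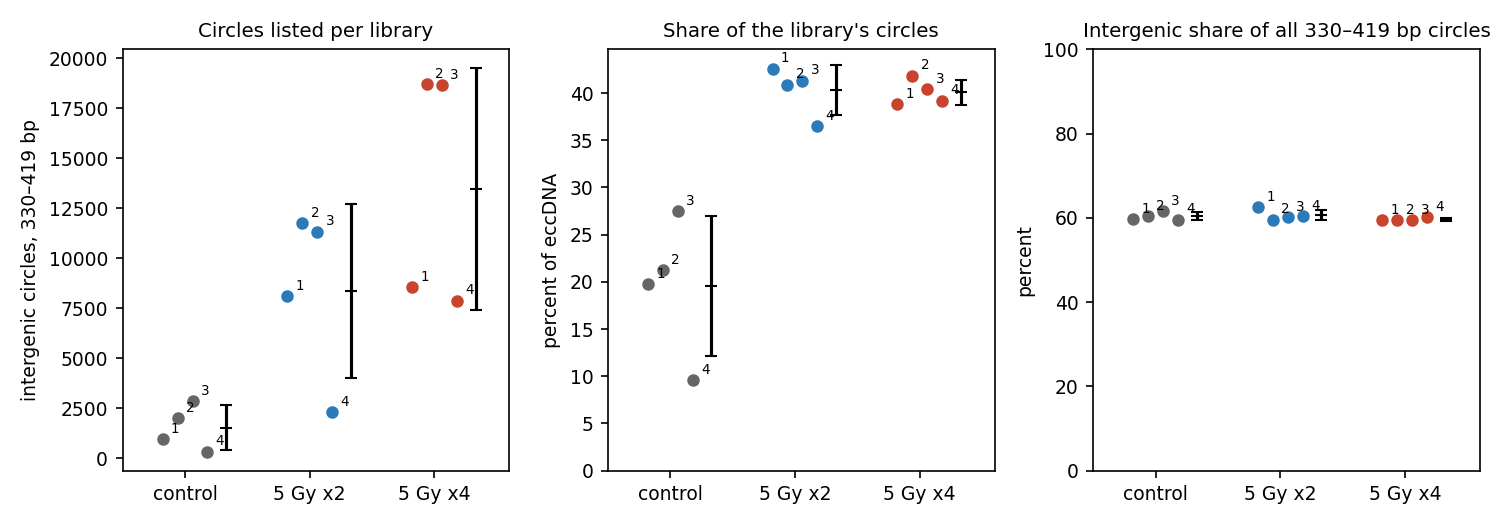
Number of intergenic circles of 330 to under 420 bp per library (left), their percent of the library's eccDNA (middle) and their percent of all eccDNA of 330 to under 420 bp (right), each point a library marked with its replicate number and each bar the mean ± SD of 4 libraries. The number ran from 345 in control replicate 4 to 18706 in 5 Gy x4 replicate 2, while the intergenic part of the length class stayed between 59.4% and 62.5%.

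The part of the 330 to under 420 bp class that lay between genes was nearly the same in every library. It was 60.3% ± 0.948 in control, 60.7% ± 1.27 after 5 Gy x2 and 59.6% ± 0.324 after 5 Gy x4 (SD, n = 4). Intronic circles of the same length showed similar folds, with a mean 5.42-fold the control mean in 5 Gy x2 and 9.004-fold in 5 Gy x4. Intergenic circles of other lengths gave 1.47-fold and 2.40-fold. Within intergenic circles, the 330 to under 420 bp class took 32.8% ± 12.2 in control, 66.9% ± 3.73 after 5 Gy x2 and 67.0% ± 2.42 after 5 Gy x4. Within intronic circles it took 30.8% ± 11.2 in control skin, 65.3% ± 4.67 after 5 Gy x2 and 66.8% ± 2.75 after 5 Gy x4. At the lower bound, 1971 intergenic circles lay inside within 5 bp and 1804 lay outside within 5 bp. At the upper bound, the last 5 bp inside held 1258 and the first 5 bp outside held 966.

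Lengths inside the class followed a ladder. Pooled over the libraries and smoothed over 3 bp, the calls peaked at 336, 348, 358, 370, 380 and 392 bp, with troughs at 341, 352, 364, 375 and 387 bp. The 358 bp peak was the highest, with 2212 calls at that length, against 1074 calls at the 364 bp trough. Each group had peaks at 348, 358 or 359, 370, 380 and 391 or 392 bp. The median length was 369 bp over all listed circles, with quartiles of 355 and 383 bp. Library medians averaged 370.25 ± 2.5 bp for control skin, 369.75 ± 0.5 bp for 5 Gy x2 skin and 369.25 ± 1.26 bp for 5 Gy x4 skin (SD, n = 4), at most 1 bp apart.

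**Figure D2:**
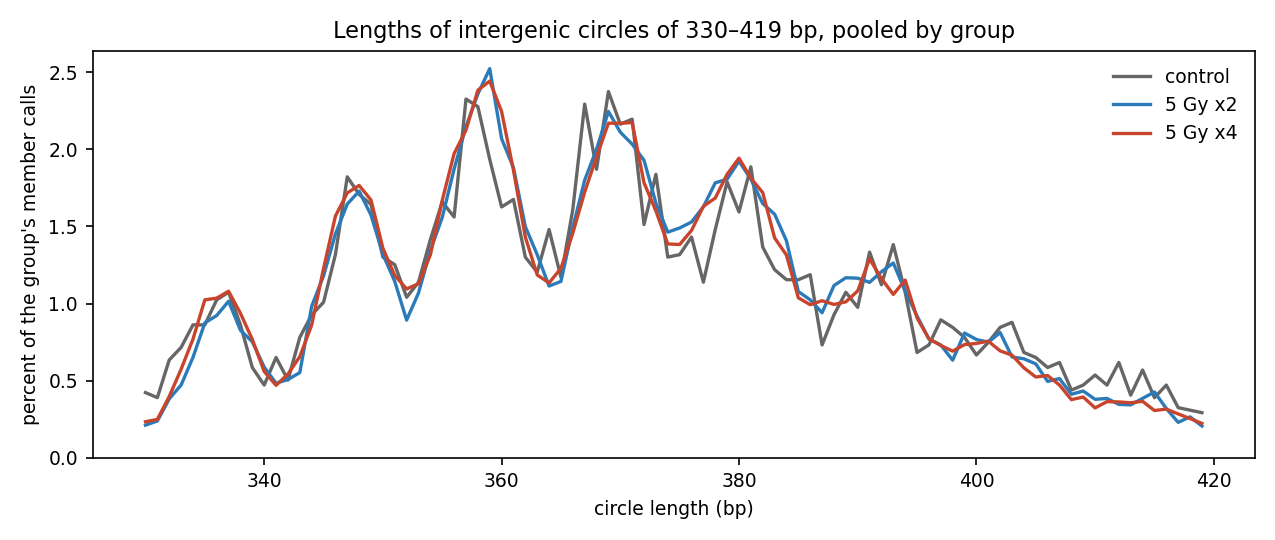
Percent of a group's calls (y axis) at each length from 330 to under 420 bp (x axis) for intergenic circles, pooled over the 4 libraries of control, 5 Gy x2 and 5 Gy x4. The 3 lines share peaks near 348, 358, 370 and 380 bp, and the control line, which rests on the fewest calls, is the most uneven.

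The contrast of the ladder was measured as calls per peak over calls per trough, each within 2 bp. It was 1.24, 1.40, 1.41 and 1.32 in control replicates 1 to 4. The 5 Gy x2 libraries gave 1.44, 1.39, 1.46 and 1.28, and the 5 Gy x4 libraries 1.45, 1.46, 1.47 and 1.44. All 5 Gy x4 libraries had higher values than the controls, while 5 Gy x2 replicates 2 and 4 lay within the control range. The positions were set from the pooled calls, most of which came from 5 Gy x4 libraries, and the effect of that choice was not tested. They include the 336 bp peak. Control calls were also high there, with 63 at 336 bp and 66 at 337 bp, against 29 at 340 bp. The smoothed control values at 336 and 337 bp were tied, so no single control peak was marked. Circles of 390 bp or more took 22.7% ± 4.16 of the class in control, 19.1% ± 1.39 after 5 Gy x2 and 18.9% ± 1.89 after 5 Gy x4. Control replicate 4 was the highest of all with 28.7%, and its median length of 374 bp was also the highest.

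Most of these circles rested on few reads. The median was 4 supporting reads over all libraries, 19559 circles (21.5%) had 1 read, and 18630 (20.5%) had at least 10. Only 126 circles had at least 100 reads and 3 had at least 1000. The authors' tables label each circle hconf, conf or lconf without defining the labels. Among circles of 1 library, hconf and conf circles all had a coverage continuity value under 0.2 and lconf circles all had 0.2 or more, and the lower coverage value at the 2 ends was at least 0.5 for hconf and under 0.5 for conf. By these labels 64749 circles (71.2%) were lconf, 10079 (11.1%) conf and 16091 (17.7%) hconf. The hconf share of calls was 28.6% in the 10 bp step from 330 bp and 19.5% in that from 350 bp. It lay between 15.2% and 17.0% in each step from 360 bp upward.

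No library measure of these circles passed an adjusted p of 0.05 between groups in 15 two-sided exact permutation tests, and 2 had an unadjusted exact p of 0.0286. That is the smallest exact p that 4 against 4 libraries allow, so a lone measure could not have passed after adjustment. The hconf share was 23.3%, 22.5%, 18.4% and 36.5% in control replicates 1 to 4. It was 14.8%, 20.6%, 15.6% and 13.4% in 5 Gy x2 and 17.1%, 19.1%, 21.2% and 13.3% in 5 Gy x4. Both irradiated groups overlapped the controls. The difference of means from control was -9.08 percentage points for 5 Gy x2 (exact permutation p = 0.0571, adjusted p = 0.214, n = 4) and -7.49 for 5 Gy x4 (exact p = 0.0857, adjusted p = 0.214, n = 4). Leaving out control replicate 4 gave -5.29 points at 5 Gy x2, with -3.70 at 5 Gy x4. The median over circles of their mean read depth was 2.30, 4.93, 6.21 and 37.7 in control replicates 1 to 4, 9.33, 2.67, 4.88 and 3.09 in 5 Gy x2, and 3.88, 3.31, 2.58 and 7.30 in 5 Gy x4. Control replicate 4 thus listed the fewest circles and covered them most deeply, and it also had the largest hconf share. What part depth has in that share was not tested.

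Mean supporting reads per circle were 14.9 ± 12.2 in control, 7.61 ± 5.29 after 5 Gy x2 and 6.72 ± 3.39 after 5 Gy x4 (SD, n = 4), with adjusted p values of 0.506 and 0.429 in the exact tests against control. Control replicate 4 had 32.5 reads per circle, and without it the control mean was 9.07. The differences from control were then -1.47 for 5 Gy x2 and -2.35 for 5 Gy x4, against -7.32 and -8.20 with it. A single circle on chromosome 3 carried 41.98%, 16.5% and 36.7% of these reads in control replicates 2, 3 and 4. Without that circle, and with all libraries, the means were 10.3 ± 7.22 in control, 7.24 ± 4.63 after 5 Gy x2 and 6.72 ± 3.39 after 5 Gy x4. Circles with a single read took 19.2% ± 10.4 of the list in control libraries, 19.3% ± 14.3 after 5 Gy x2 and 19.6% ± 9.77 after 5 Gy x4, and the groups overlapped.

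**Figure D3:**
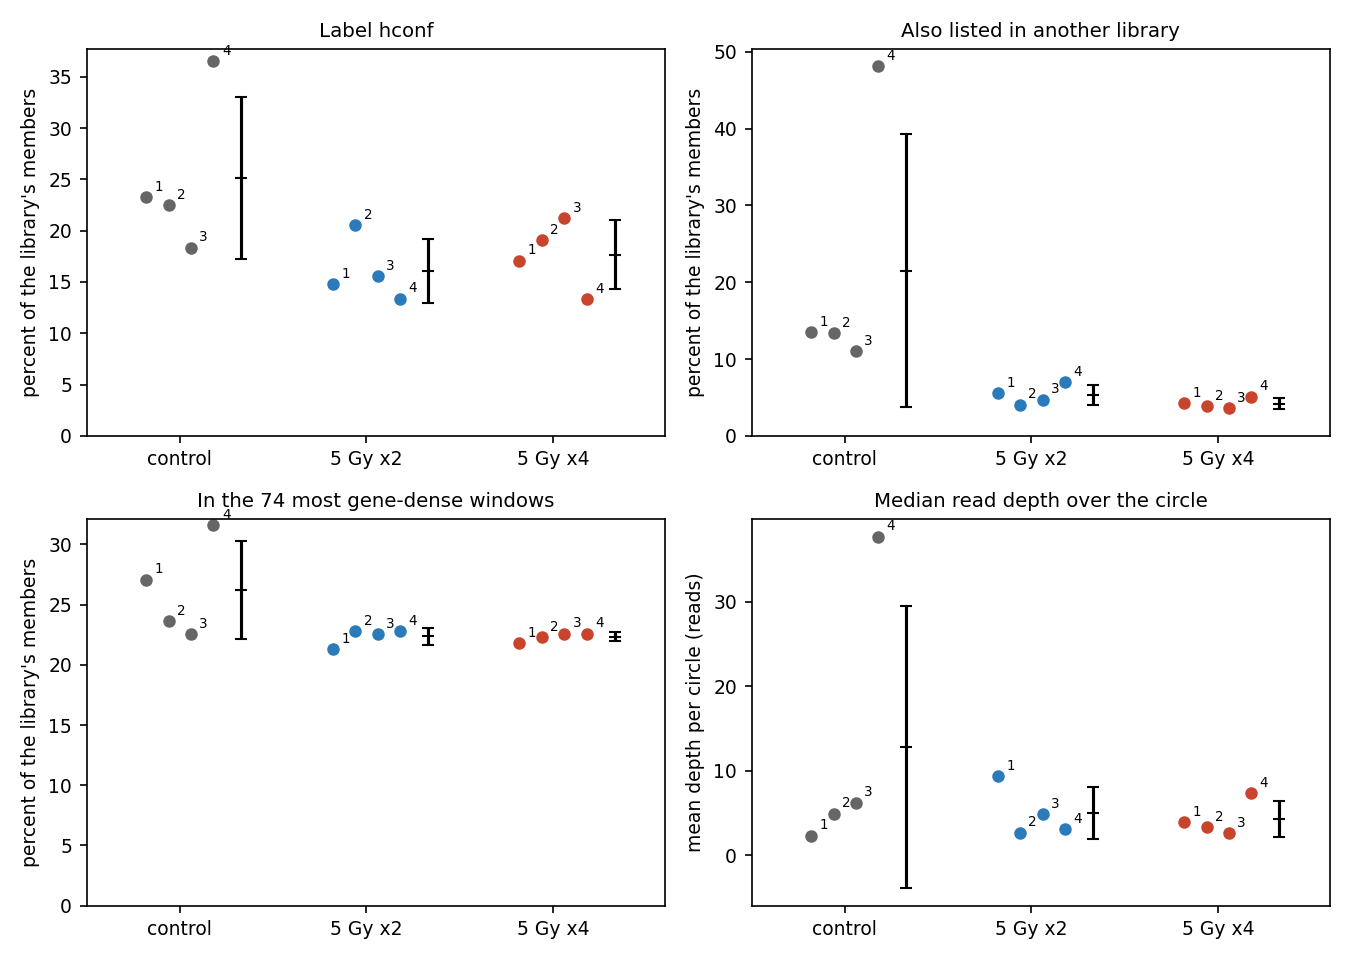
Per library, the percent of its intergenic circles of 330 to under 420 bp with the label hconf, the percent also listed in another library, the percent in the 74 windows of 10 Mb with most genes, and the median read depth over the circles. Points are libraries with their replicate numbers and bars are the mean ± SD of 4; control replicate 4 lies highest in all 4 plots (36.5%, 48.1%, 31.6% and a depth of 37.7).

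Nearly all of these circles were found once. In 1 library only were 88823 circles (97.7%), in 2 libraries 1851, in 3 libraries 144 and in 4 or more 101. Exactly 1 circle was listed in all 12 libraries. Of the 101 circles in 4 or more libraries, 78 had the label hconf, 93 were present in at least 1 control library and 66 in all 3 groups. Over all 90919 circles, 16091 had the label hconf and 5928 were present in at least 1 control library. A circle in more libraries has more chances to be in a control or in all 3 groups, and that part of the counts was not tested. The hconf share was 17.4% of circles in 1 library, 27.1% of those in 2 and 49.3% of those in 3. Any 2 libraries shared between 15 and 157 circles, and pairs within 5 Gy x4, the group with most circles, shared 45 to 157.

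The percent of a library's circles that were also listed in another library was 13.5%, 13.3%, 11.002% and 48.1% in control replicates 1 to 4. It was 5.55%, 4.07%, 4.71% and 6.97% in 5 Gy x2 and 4.30%, 3.82%, 3.57% and 5.11% in 5 Gy x4. Every irradiated library lay below every control library, with an exact permutation p of 0.0286 for each dose, the smallest that 4 against 4 allow, and an adjusted p of 0.214. The difference was -16.2 percentage points in 5 Gy x2 and -17.3 in 5 Gy x4, and -7.28 and -8.41 without control replicate 4, with the groups still apart. Control libraries also held fewer circles (345 to 2854, against 2310 to 18706 in irradiated libraries), and the part of that number in the percent was not tested.

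The circle in all 12 libraries lies on chromosome 3 from 32684 to 33068 (rn6, 385 bp, label conf). It had 604, 229, 193 and 34 supporting reads in control, 109, 486, 230 and 262 in 5 Gy x2, and 131, 459, 208 and 320 in 5 Gy x4. Its reads overlapped between the 3 groups. Another circle, 8473 bp further along chromosome 3 from 41542 to 41932, had the most reads of the class, 30946. These came from 4 libraries alone, with 9502, 5451 and 4110 reads in control replicates 2, 3 and 4, 11883 in 5 Gy x2 replicate 1, and 0 in the other 8. Of its 4 libraries, 3 were controls. The nearest gene with a listed circle, AABR07051190.1 (ENSRNOG00000005062), lay 219355 bp from it.

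The next circles in number of libraries had fewer reads. The circle in 11 libraries lies on chromosome 10 from 37652263 to 37652611 (349 bp, label lconf), 30395 bp from Tcf7, which encodes a transcription factor of T cells. It had 4 to 40 reads where present and was at 0 in control replicate 2. The circle in 10 libraries lies on chromosome 9 from 13798560 to 13798975 (416 bp), 53735 bp from Lrfn2, a synaptic adhesion gene. It had 20, 12, 124 and 62 reads in control, 0, 27, 20 and 22 in 5 Gy x2, and 5, 18, 0 and 11 in 5 Gy x4. The circle in 9 libraries lies on chromosome 5 from 49052192 to 49052554 (363 bp), 277864 bp from Cnr1, which encodes a cannabinoid receptor, and had 9 to 42 reads where present.

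The 6 circles found in 8 libraries each had 116 to 836 reads in all. One of them, on chromosome 1 from 181221273 to 181221641, had 231 and 359 reads in control replicates 2 and 3, 62 to 66 in 3 of the 5 Gy x2 libraries and 17 to 20 in 3 of the 5 Gy x4 libraries. Another 2 circles were among the 5 with most reads. A circle on chromosome 7 from 116306813 to 116307155, 50219 bp from Ly6e, which encodes a membrane protein of the Ly6 family, had all of its 1139 reads in 5 Gy x4 replicate 2. A circle on chromosome 2 from 160885532 to 160885920 had 349 reads in control replicate 3, 362 in 5 Gy x2 replicate 1 and 76 in 5 Gy x4 replicate 4. High support thus occurred both in circles of many libraries and in circles of 1.

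**Figure D4:**
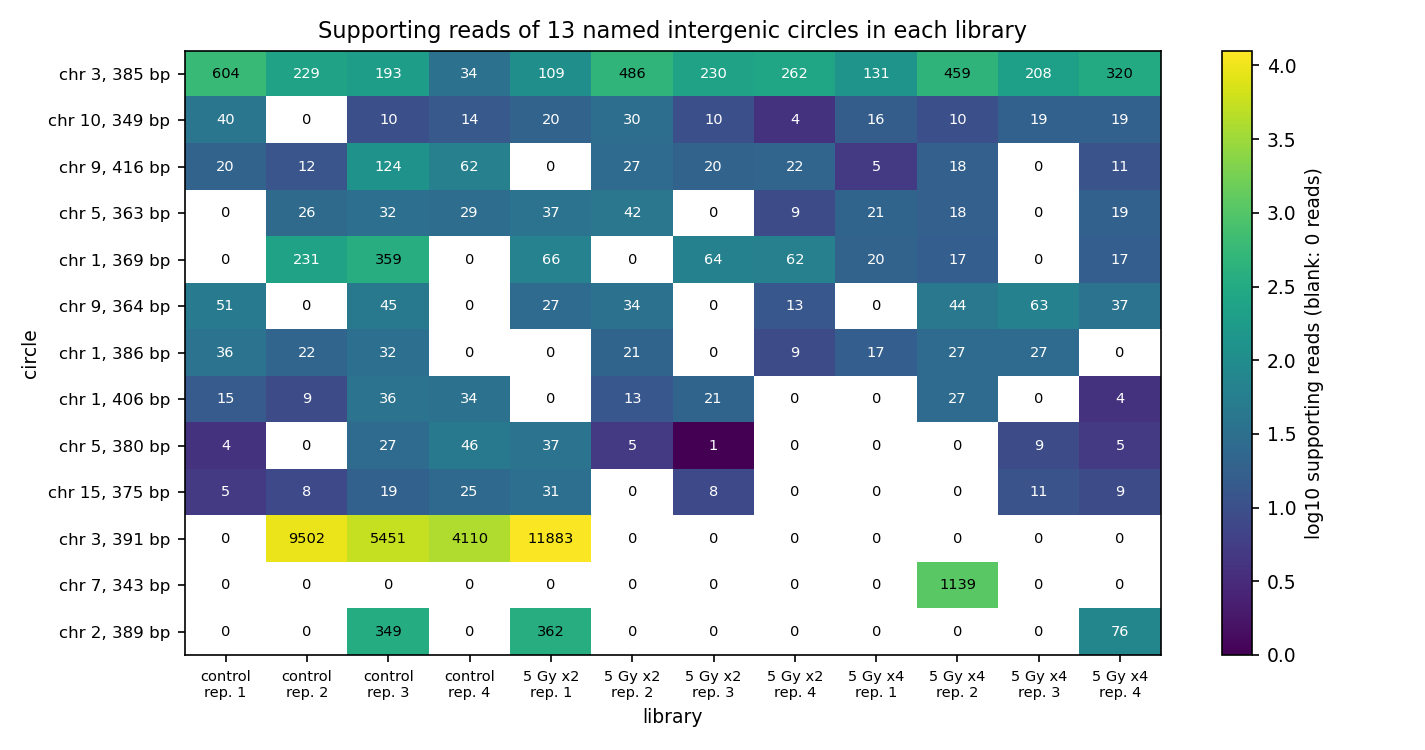
Supporting reads of the 10 intergenic circles of 330 to under 420 bp found in most libraries (top rows) and of the other 3 among the 5 with most reads (bottom rows), by library; colour is log10 of the reads, the number in each cell is the reads, and blank cells hold 0. The 385 bp circle of chromosome 3 fills its row, whereas the 391 bp circle of chromosome 3 has 4110 to 11883 reads in 4 libraries and 0 in the other 8.

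Autosomes with more genes per Mb tended to carry fewer of these circles per Mb. Gene positions were taken as the span of the exonic and intronic circles listed for each of 13575 genes, since no rn6 annotation was used, so distances to genes are approximate and tend to be too long. Chromosome 11 carried the most circles per Mb (38.1 over all libraries), with 4.08 such genes per Mb. Chromosome 12 carried the fewest of the autosomes (22.0), with 7.87 genes per Mb. Chromosome 10 had 31.1 circles and 8.67 genes per Mb. Across the 20 autosomes the Spearman correlation of circles per Mb and genes per Mb was -0.705. This is a description, since all points come from the same 12 libraries and the gene counts use circles of the same tables. The circles are intergenic by rule but were counted per Mb of whole chromosome, not of DNA between genes. The part of that rule in the correlation was not tested. Chromosome X held 17.8 circles per Mb. Of the 330 to under 420 bp circles on chromosome 12, 44.9% lay between genes, against 65.8% on chromosome 11 and 70.03% on chromosome X.

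**Figure D5:**
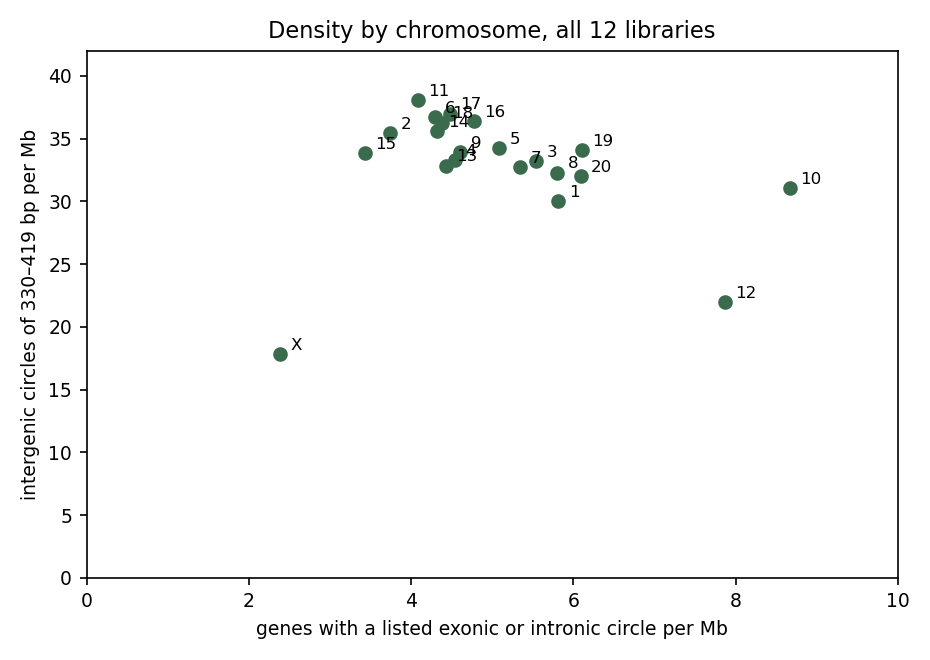
Intergenic circles of 330 to under 420 bp per Mb (y axis) against genes with a listed exonic or intronic circle per Mb (x axis) for chromosomes 1 to 20 and X, all 12 libraries together, with Mb counted to the end of the last circle. Chromosome 12 lies lowest of the autosomes at 22.0 circles per Mb and chromosome 11 highest at 38.1, with chromosome X at 17.8.

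By exact permutation tests, the share of these circles on each of 22 chromosomes did not pass an adjusted p of 0.05 in any pair of groups (0 of 22, or 0% called). In 5 Gy x2 against control the libraries of the groups did not overlap for 2 of 22 chromosomes (9.09%), and for 0 of 22 in 5 Gy x4 against control and between the doses. Chromosome 12 held 1.18% ± 0.182 of the circles in 5 Gy x2 and 2.15% ± 0.924 in control (exact permutation p = 0.0286, adjusted p = 0.314, n = 4). Its share after 5 Gy x4 was 1.27% ± 0.157 (exact p = 0.0571 against control, adjusted p = 0.314). The highest control value was 3.48%, that of control replicate 4, with 12 of its 345 circles on the chromosome. Without that library the control mean was 1.71% and the difference from it -0.528 percentage points for 5 Gy x2, against -0.971 with it. Chromosome 11 held 3.99% ± 0.131 in 5 Gy x2 and 3.17% ± 0.597 in control (exact p = 0.0286, adjusted p = 0.314), and 3.72% ± 0.189 in 5 Gy x4 (exact p = 0.171, adjusted p = 0.629). At an unadjusted exact p of 0.0286, the smallest possible, these 2 chromosomes in 5 Gy x2 were the only calls. With that limit a lone chromosome could not pass after adjustment over 22, so no conclusion is drawn from 0 of 22.

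In windows of 10 Mb, 0 of 281 tested windows (0% called) passed an adjusted p of 0.05 with edgeR's quasi-likelihood test in any pair of groups. At an unadjusted p under 0.05 there were 31 windows (11%) in 5 Gy x2 against control, 25 (8.9%) in 5 Gy x4 against control and 10 (3.56%) in 5 Gy x4 against 5 Gy x2. DESeq2 also called 0, with 28, 19 and 5 at an unadjusted p under 0.05. Libraries of the groups did not overlap in share in 14 windows (4.98%), 20 windows (7.12%) and 5 windows (1.78%). The median window held 5.25 circles per control library, 29.75 per 5 Gy x2 library and 48.5 per 5 Gy x4 library.

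The windows with the lowest p are given as values. The window of chromosome 9 from 10000001 held 20, 45, 54 and 26 circles in 5 Gy x4 libraries and 7, 6, 20 and 3 in control libraries. Relative to all windows its log2 fold change was -1.11 (SE 0.31, edgeR adjusted p = 0.0911). It passed the threshold when circles needed 2 reads (log2 fold change -1.31, edgeR adjusted p = 0.0120) and when control replicate 2 was left out (-1.35, edgeR adjusted p = 0.0178). The window of chromosome 6 from 70000001, with 28 genes, held 41, 63, 55 and 7 circles in 5 Gy x2 and 4, 3, 5 and 0 in control (log2 fold change 1.35, SE 0.38, edgeR adjusted p = 0.120). It passed without control replicate 1 (1.70, edgeR adjusted p = 0.0379). The window of chromosome 19 from 50000001, with 91 genes, had a log2 fold change of -1.01 in 5 Gy x2 (edgeR adjusted p = 0.205) and -0.94 in 5 Gy x4 (edgeR adjusted p = 0.175), with groups apart at both doses, which share the control libraries. The first window of chromosome 3, with 101 genes, held 19, 34, 45 and 16 circles in 5 Gy x4 and 4, 10, 11 and 4 in control, apart in share (log2 fold change -1.15, edgeR adjusted p = 0.175). The window of chromosome 11 from 20000001, with 20 genes, held 43, 118, 81 and 49 circles in 5 Gy x4 and 1, 3, 12 and 1 in control, again apart in share (log2 fold change 0.97, edgeR adjusted p = 0.273).

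The other windows of lowest p in 5 Gy x2 against control were the first of chromosome 20 (log2 fold change -1.32, edgeR adjusted p = 0.224), the first of chromosome 12 (-1.14, adjusted p = 0.290) and that of chromosome 16 from 80000001 (-0.73, adjusted p = 0.315). The chromosome 16 window was also among the 5 of lowest p in 5 Gy x4 (-0.70, edgeR adjusted p = 0.273). Between the doses, the lowest p belonged to the window of chromosome 13 from 100000001, with 42, 84, 93 and 40 circles in 5 Gy x4 and 30, 36, 44 and 8 in 5 Gy x2 (log2 fold change 0.44). The next were the windows of chromosome 5 from 100000001 (-0.39), chromosome 2 from 210000001 (-0.41), chromosome 11 from 70000001 (-0.36) and chromosome 6 from 20000001 (0.48), all 5 with an edgeR adjusted p of 0.967.

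The 74 of 291 windows with most genes (at least 62) held 26.2% ± 4.07 of these circles in control, 22.4% ± 0.705 after 5 Gy x2 and 22.3% ± 0.371 after 5 Gy x4 (SD, n = 4). The exact permutation p was 0.0857 for each dose against control, with an adjusted p of 0.214, and the groups overlapped. Without control replicate 4, at 31.6% the highest, the differences were -2.05 and -2.09 percentage points, against -3.84 and -3.88 with it. Split into 4 classes by gene number, the windows with fewest genes held 20.2% ± 2.83 in the control group, 24.4% ± 0.757 at 5 Gy x2 and 24.1% ± 0.532 at 5 Gy x4. From the class with fewest genes to that with most, the listed circles per window were 301, 337, 336 and 274. The number per window was thus lowest in the class with most genes but did not fall step by step. It was counted per whole window, not per Mb of DNA between genes.

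Distances to genes are approximate and tend to be too long, since genes without a listed exonic or intronic circle were left out. The median distance to the nearest gene with a listed circle was 111149 bp, with quartiles of 39546 and 296039 bp. Within 10 kb of such a gene were 4132 circles (4.54%), and 3876 (4.26%) lay more than 1 Mb away. By library the median distance averaged 100460 ± 13014 bp in control skin, 112589 ± 5983 bp after 5 Gy x2 and 109983 ± 2052 bp after 5 Gy x4 (SD, n = 4). Control replicate 4 had the shortest median, 83795 bp. Without it the control mean was 106016 bp, and the difference from control was 6573 bp for 5 Gy x2 and 3967 bp for 5 Gy x4, against 12129 and 9522 bp with it. With all libraries, the exact permutation p was 0.200 for 5 Gy x2 (adjusted p = 0.375, n = 4) and 0.286 for 5 Gy x4 (adjusted p = 0.429, n = 4). At 1 Mb or more lay 3.24% ± 0.566 of the circles in control, 4.55% ± 0.552 at 5 Gy x2 and 4.25% ± 0.145 at 5 Gy x4.

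The 5 genes that were nearest to most circles were chosen for that rank alone. Cntnap5c (ENSRNOG00000043185, chromosome 13), of the contactin-associated family, was the nearest gene to 195 circles between 4671803 and 10931017. These gave 10, 63 and 127 calls in control, 5 Gy x2 and 5 Gy x4. The whole class averaged 1538, 8376 and 13454.5 circles per library in these groups. The calls near Cntnap5c are not shares of the class, and no group difference is read from them. An unnamed gene on chromosome 15 (ENSRNOG00000059235) was nearest to 190, LOC304725 (chromosome 13) to 177, Pcdh7 (chromosome 14), a protocadherin, to 174 and Ctnna2 (chromosome 4), a catenin of neurons, to 162. Their circles lay at median distances of 577549 bp for Pcdh7 to 1378940 bp for LOC304725. In all, 9534 genes were nearest to at least 1 circle, with a median of 4 circles per gene, so no gene's surroundings held more than 0.214% of the class.

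Gene families were counted by the nearest gene. Olfactory receptor genes were nearest to 734 circles (0.807%) and make up 0.648% of the genes with a span. Protocadherin genes were nearest to 513 circles (0.564%) and are 0.125% of the genes, and vomeronasal receptor genes were nearest to 295 (0.324%) and are 0.346%. Zinc finger protein genes of the Zfp series were nearest to 795 (0.874%) and are 1.19%, and collagen genes to 211 (0.232%) and are 0.280%. Keratin genes, which encode the filaments of epidermis and hair, were nearest to 71 circles (0.0781%) and are 0.206% of the genes. Hox genes, which encode transcription factors of the body axis, were nearest to 49 (0.0539%) and are 0.0663%. The share of genes is not the share of circles to be expected, as families differ in the space around their genes. The median distance from these circles to the gene ran from 18806 bp for keratin genes to 452222 bp for protocadherin genes. The part of that space in the shares was not tested.

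Few of these circles overlapped each other. Of the 90919, 3781 (4.16%) overlapped another of the class and 14288 (15.7%) lay within 1 kb of one, with a median spacing of 12728 bp between starts. The fullest 100 kb bin, chosen after its values were seen, lies on chromosome 17 from 89400001 to 89500000 and held 21 circles, where bins with any circle had a median of 4. It held 0, 1, 0 and 0 circles in control, 5, 1, 7 and 1 in 5 Gy x2, and 4, 5, 7 and 5 in 5 Gy x4. The whole class averaged 1538, 8376 and 13454.5 circles per library in these groups, so no group difference is read from the bin.

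Within libraries, these circles were compared with the 48141 intronic circles of the same length and with the 46144 intergenic circles of other lengths by permutation tests over 12 libraries, adjusted over 10 tests. The hconf share was lower than in intronic circles of the same length in 12 of 12 libraries, with a difference of -1.35 ± 1.01 percentage points (mean ± SD, permutation p = 4.88e-04, the smallest that 12 libraries allow, adjusted p = 9.77e-04). Against intergenic circles of other lengths the difference was -26.5 ± 10.7 points, lower again in 12 of 12 libraries (19.6% against 46.1%, adjusted permutation p = 9.77e-04). Read depth over the circle was lower than in other lengths in 12 of 12 libraries, with a mean of the library medians of 7.35 against 17.7 (adjusted permutation p = 9.77e-04). Supporting reads per circle were lower in 11 of 12 libraries, at 9.75 against 16.1 (adjusted permutation p = 0.00279). The percent also listed in another library was lower in 11 of 12, at 10.3% against 21.5% (adjusted permutation p = 0.00244).

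Against intronic circles of the same length, read depth had a mean difference of 0.239 and was lower in 11 of 12 libraries (permutation p = 1.00, n = 12). Control replicate 4 alone was higher. Without it the difference was -0.353 (adjusted permutation p = 0.00109 over the 11 libraries left). The percent also listed elsewhere differed by -0.447 points on average (adjusted permutation p = 0.133), and by -0.619 without control replicate 4 (adjusted permutation p = 0.00109). Supporting reads per circle ran the other way, 1.81 more than in intronic circles and higher in 8 of 12 libraries (adjusted permutation p = 0.0867). Without control replicate 4 the excess was 0.775 (adjusted permutation p = 0.139). Much of it came from the chromosome 3 circle with most reads. Leaving that circle out lowered the mean excess of control libraries from 5.41 to 0.786. The 5 Gy x2 mean moved from 0.198 to -0.169. The 5 Gy x4 libraries had 0 reads of the circle, and their mean stayed at -0.164. The share in gene-dense windows was 23.6%, against 27.7% in intergenic circles of other lengths, lower in 12 of 12 libraries (adjusted permutation p = 9.77e-04). It was 34.9% in intronic circles of the same length, given with no test because genes were counted from exonic and intronic circles.

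Whether a group difference was particular to these circles was tested on the within-library differences, in 30 exact permutation tests. None passed an adjusted p of 0.05, and the smallest adjusted p was 0.286. With 4 libraries per group the exact p cannot go below 0.0286, so a lone difference could not pass after adjustment over 30 tests. Relative to intergenic circles of other lengths, the share in gene-dense windows was -3.79 percentage points in 5 Gy x2 and -6.26 in control (exact p = 0.0286, adjusted p = 0.286, n = 4). It was -2.23 in 5 Gy x4 (exact p = 0.0286 against control, adjusted p = 0.286), with every irradiated library above every control at both doses. Relative to intronic circles of the same length, the difference in supporting reads was -0.164 per circle in 5 Gy x4 and 5.41 in control (exact p = 0.0286, adjusted p = 0.286, n = 4). By library it was 0.818, 5.27, 2.31 and 13.3 in control replicates 1 to 4. The control mean was 2.80 without replicate 4 and 0.786 without the chromosome 3 circle with most reads, and every 5 Gy x4 library lay below every control both times (exact p = 0.0286). In 5 Gy x2 the difference averaged 0.198 and overlapped control, with and without control replicate 4 (exact p = 0.0571 both times). Without that circle it was -0.169, and every 5 Gy x2 library also lay below every control (exact p = 0.0286).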

How the data were processed

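Circular DNA was enriched with a plasmid kit, freed of linear DNA by exonuclease, and 50 ng went into each TruePrep library, per the labels' protocols. The authors deposited whole-number counts of supporting reads per circle and library, with no normalization, per the file headers. The submitters' processing notes name BWA, Picard, bedtools and the build rn6; which caller found and merged the circles is not stated there. Starts count from 0 in the deposited table and from 1 here. For 5 circles the deposited total exceeded the sum over libraries. Read depth over a circle is the deposited mean coverage. The table of circles listed apart as ecDNA and 4 per-library columns of the eccDNA table were not used. The labels name no molecular identifiers, so reads are not taken as independent molecules.

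Library measures, chromosome shares and within-library differences were tested by exact permutation or sign permutation in Python 3.11.15 (numpy 2.4.6, pandas 2.3.3, scipy 1.17.1) with Benjamini-Hochberg adjustment. The label hconf belongs to a circle, not to a library. Numbers at equal reads are hypergeometric expectations. Circles per 10 Mb window were tested with edgeR 4.0.16 in R 4.3.3 (TMM, filterByExpr, quasi-likelihood F test, all 12 libraries, group only) and with DESeq2 1.42.0. The steps were tested on simulated data. Named regions were the 10 circles in most libraries, the 5 with most reads, the 5 windows with the lowest p per pair where none passed, and the 5 genes nearest to most circles. The circles, gene families and tests were chosen with earlier results of these data known; read depth, uncovered share and single-read share (9 tests) and the tests of 30 differences were added later.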

Additional observations from a re-analysis of the deposited data

Results flagged for a closer look

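In 33 screened sets of 4 libraries, 4 values were flagged for their gap from the other 3 of their group. Chance alone gives about 1 in 20 where values are not tied. Control replicate 4 accounted for 3 of them, with a median length of 374 bp, 48.1% of its circles also listed in another library and a median read depth of 37.7. The other was the median length of 369 bp in 5 Gy x2 replicate 1, where the remaining libraries of that group all had 370 bp. In control too the other 3 libraries were tied, at 369 bp, so the rate does not hold for the flagged median lengths.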

How the results depend on the processing

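The number in 5 Gy x4 over control was 3.70-fold per 1000 supporting reads, the only other scale or threshold run that moved a fold by more than the spread between libraries; leaving out single libraries gave 4.33 to 7.62-fold for 5 Gy x2, 6.95 to 12.2-fold for 5 Gy x4 and 1.29 to 1.86-fold between the doses (an alternative added after the data were seen, as was leaving out the circle with most reads). No library measure passed its adjusted threshold under any alternative run, and in those runs too a lone measure could not pass after adjustment. The lowest adjusted exact permutation p was 0.0686 with hconf circles alone, 0.0714 without control replicate 3 and 0.214 without control replicate 4. Without control replicate 3 the hconf share, the percent also listed in another library and the gene-dense share did not overlap control at either dose. Without control replicate 4 only the percent also listed in another library did not. Between the doses, 3 small differences changed sign: the gene-dense share was 0.158 percentage points higher in 5 Gy x4 with 340 to under 410 bp and -0.385 to 0.135 without single libraries, mean reads ran from -2.53 to 1.55, and the median distance to a gene from -4357 to 143 bp. The number of windows called was 1 in 5 Gy x4 against control when 2 reads were required, and 0 to 1 without single libraries in each comparison with control. One of these, without control replicate 3, was chromosome 15 from 70000001 (log2 fold change 2.19, edgeR adjusted p = 0.0427). Against intronic circles of the same length, leaving out single libraries moved read depth between -0.353 and 0.326 and the share also listed elsewhere between -0.619 and -0.239 points.

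Same-numbered libraries of different groups did not deviate together over windows (correlation -0.114 to 0.140, median 0.0013), so the replicate numbers were not taken as pairs. With a replicate block, edgeR called 0 windows in each pair of groups, with 25, 21 and 10 at an unadjusted p under 0.05, and no library measure passed; 4 pairs cannot go below a p of 0.125. GC content, repeats and repeated bases at the circle ends were not run, since no rn6 genome was used. Control libraries held few circles per window, which limits the windows and chromosome shares.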
